A study of Mus musculus with 10 samples.

Results

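The 10 genes described here encode the core and accessory subunits of Polycomb repressive complex 2 (PRC2). They are Ezh1, Ezh2, Eed, Suz12, Rbbp4, Mtf2, Phf1, Phf19, Jarid2 and Aebp2, taken by symbol from a table of 24901 genes, where each stood on 1 line. Newly made RNA was measured by Bru-seq in mouse embryonic stem cells given 2 mM bromouridine for 10 min. Each value is an intronic RPKM, a read count over introns divided by intron length and library depth. Levels of different genes are set side by side only as a description, since their comparability was not tested.

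Cells of all groups were grown with LIF, 1 µM PD0325901 (a MEK inhibitor) and 3 µM CHIR99021 (a GSK3 inhibitor). EloA_WT, EloA_K754M and EloA_K754R had 2 libraries each and carried wild-type Elongin A or an edited form with the lysine K754 replaced by methionine or arginine. CJ7_WT, a wild-type line, and Eed_null, named in its titles as lacking Eed, had 2 samples each that were deposited as 1 average column per group. The labels do not say whether the edited or null lines are single clones, nor what the Eed lesion is. As parental line they name CCE28 for EloA_WT and Eed_null but CJ7 for both mutants and CJ7_WT, and the growth protocol speaks of CJ7 throughout. The Eed_null samples also carry the genotype field EloA null, so their group rests on the title and the column name. Nothing says that replicates were separate cultures, so a p-value here reflects library-to-library spread that may be technical.

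PRC2 methylates lysine 27 of histone H3, and in embryonic stem cells it marks the promoters of silent developmental regulators. Ezh2 or its paralogue Ezh1 is the methyltransferase, Eed binds the methylated histone tail and stimulates the enzyme, Suz12 is the scaffold and Rbbp4 a histone-binding subunit. The core joins one of the Polycomb-like proteins (Phf1, Mtf2 or Phf19), which bind DNA at CpG islands, or Jarid2 with Aebp2, which link it to ubiquitylated histone H2A.

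Ezh1 and Ezh2 are paralogues with different intronic RPKM, and Ezh1 and Suz12 are the members with the most negative changes in EloA_K754M. The promoters of these 3 members are shown because the results turn on them. They run from 250 bases before to 50 after the annotated start, 5′ to 3′ on the gene's strand, and come from RefSeq on GRCm38.p6, a build other than the mm9 of the table. Capitals mark E2F-type letters (TTTCCCGC, TTTCGCGC, TTTGCCGC or TTTGGCGC) and, in Ezh1, NRF1-type letters (TGCGCA, any base, then GCGC), searched on both strands. The E2F-type and NRF1-type letters do not overlap in these windows.
Ezh1, chr11:101226414-101226713, minus strand: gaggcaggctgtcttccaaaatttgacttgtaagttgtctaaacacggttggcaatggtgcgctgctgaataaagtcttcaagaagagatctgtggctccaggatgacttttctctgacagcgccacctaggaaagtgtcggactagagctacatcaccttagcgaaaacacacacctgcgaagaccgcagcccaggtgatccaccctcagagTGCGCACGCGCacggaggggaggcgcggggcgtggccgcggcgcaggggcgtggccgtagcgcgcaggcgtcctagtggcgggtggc
Ezh2, chr6:47594981-47595280, minus strand: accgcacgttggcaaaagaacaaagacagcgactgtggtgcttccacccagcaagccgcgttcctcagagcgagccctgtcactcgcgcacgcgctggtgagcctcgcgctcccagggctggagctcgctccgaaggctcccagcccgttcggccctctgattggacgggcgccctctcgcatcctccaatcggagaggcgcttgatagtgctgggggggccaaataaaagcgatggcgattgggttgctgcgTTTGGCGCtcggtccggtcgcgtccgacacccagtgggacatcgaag
Suz12, chr11:79992856-79993155, plus strand: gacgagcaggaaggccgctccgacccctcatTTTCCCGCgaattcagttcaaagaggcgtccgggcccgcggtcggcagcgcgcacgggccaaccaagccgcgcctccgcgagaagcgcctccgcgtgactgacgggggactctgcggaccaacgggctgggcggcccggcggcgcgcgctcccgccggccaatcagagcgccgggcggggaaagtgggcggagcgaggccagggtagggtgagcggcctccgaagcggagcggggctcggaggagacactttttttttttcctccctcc

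The E2F-type letters began at base +4 in Ezh2 and at −219 in Suz12, and also stood at −208 in Phf19. They occurred in 3 of the 14 promoter windows of the 10 members and in 2.26% of all 32851 windows. The NRF1-type letters were found in Ezh1 alone among the members, and in 2.44% of all windows. The windows held between 2 and 41 CpG dinucleotides, with Suz12 above 96.5% and Ezh1 above 78.5% of all windows. These matches describe letters and were not tested for binding.

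All 10 genes had reads in every column, and their levels spanned a wide range. Mtf2 had the highest mean over the 6 Elongin A libraries, 32.1 RPKM, above 99.2% of the 15161 tested genes. Jarid2, Eed and Suz12 followed at 15.6, 13.3 and 11.5 RPKM, then Aebp2 at 6.28, Rbbp4 at 5.37 and Ezh2 at 5.20. Phf1 (1.83), Ezh1 (0.608) and Phf19 (0.0681 RPKM) were lowest. In this order the ranges over the 6 libraries did not overlap between Mtf2 and Jarid2, Suz12 and Aebp2, Ezh2 and Phf1, Phf1 and Ezh1, or Ezh1 and Phf19. Jarid2, Eed and Suz12 overlapped one with the next, and so did Aebp2, Rbbp4 and Ezh2. Phf19 rested on 10 to 26 reads in each of the 6 libraries and had a mean under 0.1 RPKM, the filter of the test, so 9 of the 10 members were tested. In such bulk libraries a different cell mixture and a different output per cell cannot be told apart. Opposite-strand genes overlap several members in GENCODE M21, among them Gm26563 in Suz12 (12515 bases), Gm26625 in Ezh2 (5039) and Tmed5 in Mtf2 (2639), and without stated strand handling their reads cannot be told apart.

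**Figure D1:**
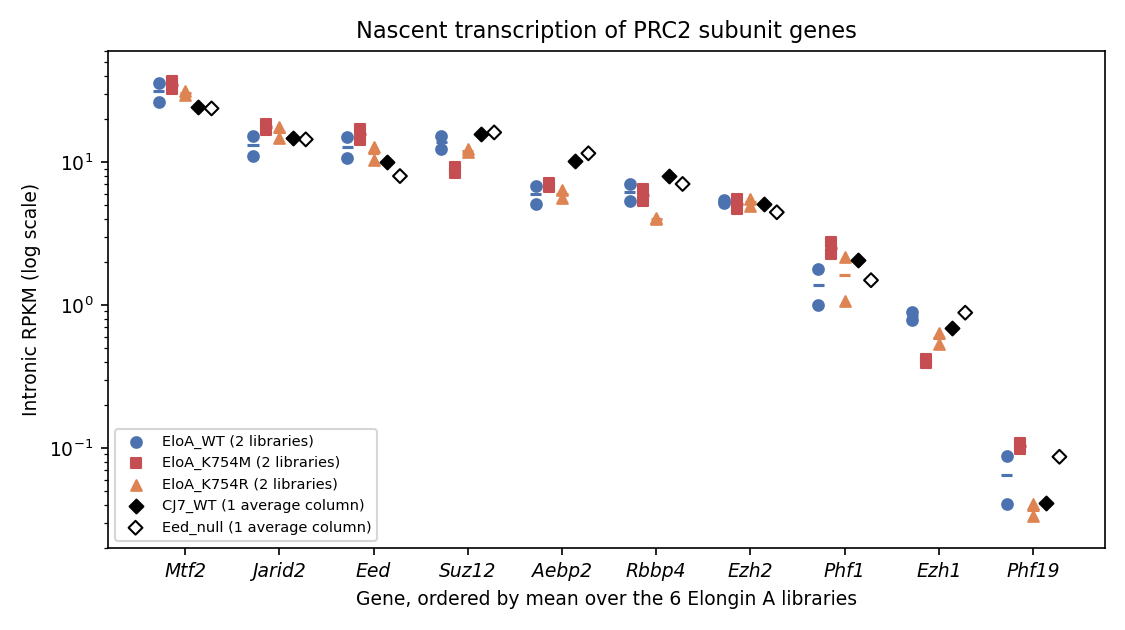
Intronic RPKM of the 10 PRC2 genes on a log axis. Each filled circle, square or triangle is 1 library, the short bars are means of 2, and the diamonds are the average columns of CJ7_WT and Eed_null. Mtf2 lies above 23 RPKM in every column and Phf19 below 0.11. Suz12 and Ezh1 are lowest in EloA_K754M.

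Of the methyltransferase pair, Ezh2 was the steadier gene. It stood at 5.40 and 5.15 RPKM (EloA_WT), 5.48 and 4.66 (EloA_K754M), 5.55 and 4.94 (EloA_K754R), 5.09 (CJ7_WT) and 4.45 (Eed_null). Its highest of 6 libraries was 1.19 times the lowest, the smallest spread of the 10 members, and the 3 groups overlapped. Ezh1 stood at 0.891 and 0.785 RPKM (EloA_WT), 0.416 and 0.391 (EloA_K754M), 0.532 and 0.635 (EloA_K754R), 0.686 (CJ7_WT) and 0.883 (Eed_null). The EloA_K754M libraries were the lowest, EloA_K754R lay between, and no 2 of the 3 groups overlapped. Ezh1 rested on 171 and 165 reads in EloA_K754M and on 480 and 357 in EloA_WT.

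In the comparison of EloA_K754M with EloA_WT, which asks what replacing the lysine by methionine does to transcription, Ezh1 had a log2 change of −0.90 (SE 0.16, limma adjusted p = 0.0977). In the comparison of EloA_K754R with EloA_WT it was −0.46 (SE 0.16, adjusted p = 0.157). Neither passed the threshold of 0.05. With voom on recovered reads Ezh1 passed for EloA_K754M (−1.03, adjusted p = 0.0396) and for the mean of both mutants (−0.77, adjusted p = 0.0296). Voom called more genes of every kind in these comparisons, 333 and 893, where the main fit called 33 and 239. The ratio of Ezh2 to Ezh1 was 6.07 and 6.56 (EloA_WT), 13.2 and 11.9 (EloA_K754M), 10.4 and 7.79 (EloA_K754R), 7.42 (CJ7_WT) and 5.04 (Eed_null). Each mutant library had a higher ratio than either EloA_WT library. With 2 libraries against 2 the exact two-sided permutation p was 0.333, the smallest possible, and with 4 mutant libraries against 2 it was 0.133. Ezh1 lies on chromosome 11, whose tested genes had a median log2 change of −0.458 in EloA_K754M and −0.564 in EloA_K754R. Ezh2 lies on chromosome 6, with medians of 0.006 and −0.116, and the ratio was not adjusted for this.

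Suz12, the scaffold, stood at 12.4 and 15.3 RPKM (EloA_WT), 8.31 and 9.19 (EloA_K754M), 11.7 and 12.3 (EloA_K754R), 15.6 (CJ7_WT) and 16.1 (Eed_null). EloA_K754M was below every other column, and EloA_K754R lay just below EloA_WT. The log2 change was −0.65 for EloA_K754M (SE 0.15, limma adjusted p = 0.14) and −0.20 for EloA_K754R (SE 0.15, adjusted p = 0.46), neither past the threshold, and the second became 0.05 with quantile normalization and −0.05 without EloA_WT replicate 2. Eed, its partner in the core, was not lower in EloA_K754M, with 14.3 and 17.1 RPKM against 10.6 and 14.9 in EloA_WT and 10.3 and 12.7 in EloA_K754R. Its log2 changes were 0.31 and −0.14 (adjusted p = 0.562 and 0.731), and the groups overlapped with EloA_WT. Without EloA_WT replicate 1 the change of Eed in EloA_K754M was 0.07. The ratio of Suz12 to Eed was 0.581 and 0.538 in EloA_K754M, against 1.17 and 1.02 in EloA_WT and 1.14 and 0.973 in EloA_K754R. The EloA_K754M ratios lay apart from the other 4, again with an exact permutation p of 0.333 against EloA_WT. Suz12 and Eed also lie on different chromosomes, 11 and 7, and this ratio was not adjusted for the chromosome medians.

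Suz12 and Ezh1 are the 2 members on chromosome 11, and the genes of that chromosome were lower as a whole in both mutants. Over its 1314 tested genes the median log2 change was −0.46 in EloA_K754M and −0.56 in EloA_K754R, against −0.06 and −0.14 over all tested genes. Of the chromosome 11 genes, 27.6% lay below Suz12 in EloA_K754M and 8.90% below Ezh1. In EloA_K754R 81.9% and 61.4% lay below them. With values centred on each chromosome's median, the changes in EloA_K754M became −0.15 for Suz12 and −0.39 for Ezh1 (limma adjusted p = 0.84 and 0.408). In EloA_K754R they turned positive, at 0.43 and 0.17 (adjusted p = 0.387 and 0.635). The part of the chromosome in these changes was not tested further, and substitution and labelled parental line cannot be told apart here. In pooled CJ7_WT, labelled with the same line as the mutants, Suz12 was at 15.6 RPKM, above all 6 libraries. Ezh1 was at 0.686 RPKM there, below both EloA_WT libraries and above every mutant library. Chromosome 11 as a whole was not compared between CJ7_WT and the libraries, so the part of the line was not tested.

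Genes beside these members were looked up after the values were seen. Of the 10 tested genes nearest to Suz12, 5 on each side, 9 had a negative change in EloA_K754M (median −0.59) and 9 in EloA_K754R (median −0.36). Of the 10 nearest to Ezh1, 8 were negative in EloA_K754M (median −0.55) and 10 in EloA_K754R (median −0.79). These counts lay near the share of all chromosome 11 genes, 84.9% and 90.9% negative, where 57.3% and 64.3% of all tested genes were. None of these neighbours was called in EloA_K754M (limma adjusted p from 0.092 to 0.932). In EloA_K754R 4 were called lower, namely 1110002N22Rik, Adap2 and Gm11206 near Suz12 and Mlx near Ezh1. There 11.6% of all chromosome 11 genes and 2.79% of all tested genes were called lower. Between the mutants 6 of the 10 genes near Suz12 had a negative difference, as Suz12 had (median −0.05, from −0.86 to 0.98). Of the 10 near Ezh1, 2 were negative (median 0.19). Utp6, adjoining Suz12, had −0.43, while Adap2 and Gm11206, on the other side of Suz12, had 0.81 and 0.98.

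**Figure D2:**
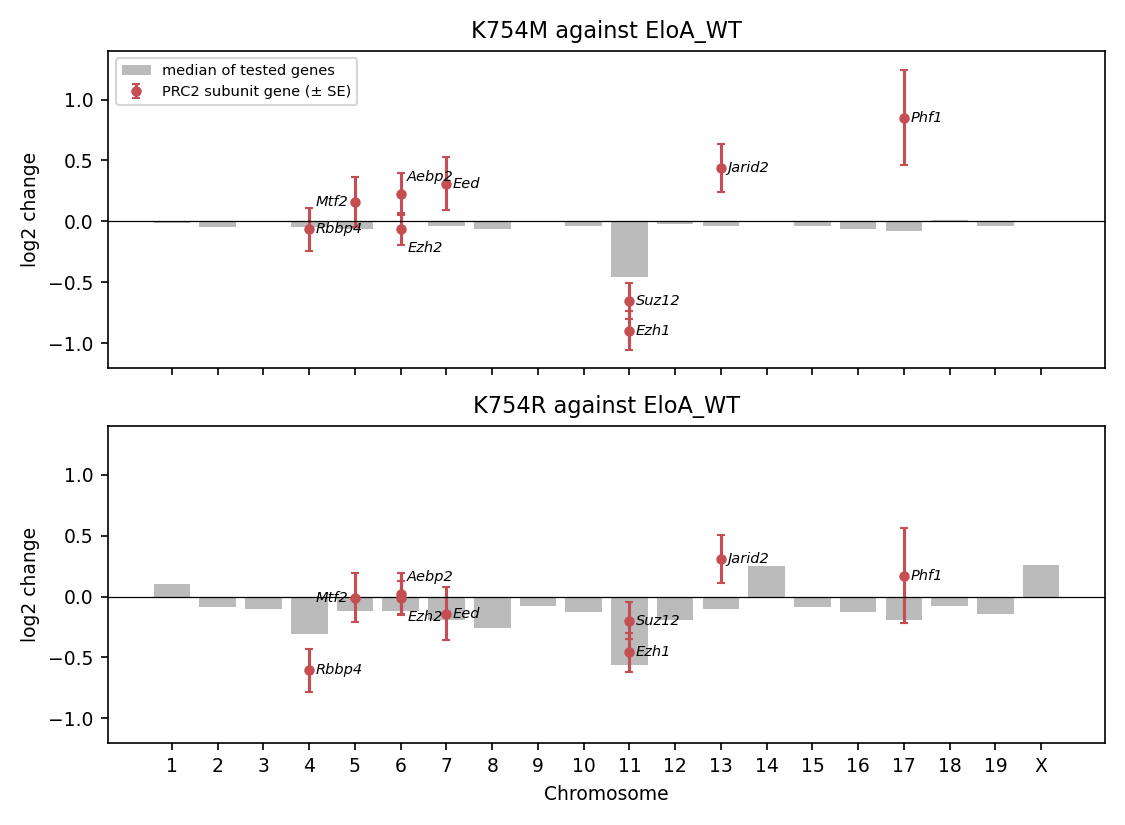
Log2 change of RPKM + 0.1 against EloA_WT for EloA_K754M (top) and EloA_K754R (bottom). Grey bars are the median of the tested genes of each chromosome, and points are the 9 tested PRC2 genes with their SE. Chromosome 11, with Suz12 and Ezh1, has the lowest median in both panels.

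Rbbp4, shared with other chromatin complexes, was low in EloA_K754R. It stood at 4.03 and 3.99 RPKM there, 5.35 and 7.07 in EloA_WT, 5.33 and 6.47 in EloA_K754M, 7.92 in CJ7_WT and 7.02 in Eed_null. Both EloA_K754R libraries lay below all other columns. The log2 change was −0.61 against EloA_WT (SE 0.18, limma adjusted p = 0.109) and −0.07 for EloA_K754M (adjusted p = 0.9). Chromosome 4, which holds Rbbp4, had a median change of −0.31 in EloA_K754R, and centred on it the change of Rbbp4 was −0.25 (adjusted p = 0.602). Rbbp4 overlaps the protein-coding gene Sync on the opposite strand over 1460 bases, and the strand handling of the counts is not given.

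Mtf2 had by far the highest intronic RPKM of the Polycomb-like genes. It stood at 26.4 and 35.9 RPKM (EloA_WT), 32.2 and 36.7 (EloA_K754M), 29.6 and 31.6 (EloA_K754R), 24.1 (CJ7_WT) and 23.7 (Eed_null). Both average columns lay below all 6 libraries, whose groups overlapped except that EloA_K754M was above EloA_K754R. Of the summed RPKM of Mtf2, Phf1 and Phf19, Mtf2 held between 91.9% and 97.2% in the 8 columns. Its log2 changes were 0.16 in EloA_K754M and −0.01 in EloA_K754R (limma adjusted p = 0.767 and 0.986), and the second turned positive with other scalings.

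Phf1, the second Polycomb-like gene, stood at 2.75 and 2.26 RPKM (EloA_K754M), 1.79 and 0.993 (EloA_WT), 2.15 and 1.06 (EloA_K754R), 2.05 (CJ7_WT) and 1.49 (Eed_null). EloA_K754M was highest, but in the other 2 groups the replicates lay far apart, on 38 to 82 reads. The log2 change of 0.85 in EloA_K754M had an SE of 0.39 (limma adjusted p = 0.379) and was 0.46 without EloA_WT replicate 2. Phf1 has 2.35 kb of intron in the table and overlaps Cuta, on the opposite strand, over 4090 bases, so its reads are uncertain. Phf19 stood at 0.0979 and 0.109 RPKM (EloA_K754M), 0.0884 and 0.0403 (EloA_WT), 0.0405 and 0.0332 (EloA_K754R), 0.0410 (CJ7_WT) and 0.0867 (Eed_null). With no filter on low values its log2 changes were 0.32 in EloA_K754M and −0.25 in EloA_K754R (adjusted p = 0.794 and 0.842).

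Jarid2, the longest member with 182 kb of intron, stood at 11.0 and 15.2 RPKM (EloA_WT), 16.7 and 18.4 (EloA_K754M), 14.7 and 17.5 (EloA_K754R), 14.8 (CJ7_WT) and 14.4 (Eed_null). EloA_K754M lay above EloA_WT and EloA_K754R overlapped both. Its log2 changes were 0.44 (SE 0.20, limma adjusted p = 0.375) and 0.31 (SE 0.20, adjusted p = 0.39), and without EloA_WT replicate 1 they were 0.21 and 0.08. Aebp2, which acts with it, stood at 5.11 and 6.79 RPKM (EloA_WT), 6.64 and 7.17 (EloA_K754M) and 5.61 and 6.37 (EloA_K754R), but 10.1 (CJ7_WT) and 11.5 (Eed_null). Both average columns were above all 6 libraries. The ratio of Jarid2 to Aebp2 was 1.46 in CJ7_WT and 1.25 in Eed_null and between 2.15 and 2.74 in the 6 libraries. With 1 column per group this difference has no replicate check.

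No member passed the threshold in any of the 4 comparisons. For EloA_K754M against EloA_WT limma called 0 of 9 members, with 2 (Ezh1 and Suz12) at an unadjusted p under 0.05, where 0.218% and 15.4% of all tested genes did so. For EloA_K754R the members were 0 and 2 (Ezh1 and Rbbp4) and the shares of all genes 3.48% and 25.1%. For the mean of both mutants they were 0 and 2 (Ezh1 and Suz12), against 1.58% and 21%. Between EloA_K754M and EloA_K754R they were 0 and 3 (Ezh1, Suz12 and Rbbp4), against 0.29% and 18.5%. The median change of the 9 members was 0.16, −0.01, 0.08 and 0.17 in these comparisons, and of all tested genes −0.06, −0.14, −0.10 and 0.09.

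Separation of the libraries was also common among all genes. The member counts here include Phf19, which lay under the 0.1 RPKM filter of the tested genes. In EloA_K754M 3 of the 10 members (Jarid2, Phf1 and Phf19) had both values above both EloA_WT values, where 17.0% of tested genes did, and 2 (Ezh1 and Suz12) had both below, where 27.2% did. In EloA_K754R 0 lay above (18.0% of tested genes) and 3 below (Ezh1, Suz12 and Rbbp4, against 38.8%). With all 4 mutant libraries on one side of both EloA_WT libraries, 0 members lay above (7.64%) and Ezh1 and Suz12 below (18.8%). Between the mutants 6 members were higher in EloA_K754M (31.9% of tested genes) and Suz12 and Ezh1 lower (18.6%). Suz12 had a log2 difference of −0.46 and Ezh1 of −0.44 between the mutants (limma adjusted p = 0.199 and 0.238). Chromosome 11 had a median of 0.10 in that comparison, and 5.1% and 5.78% of its tested genes lay below these 2. Rbbp4 was 0.54 higher in EloA_K754M and Eed 0.45 higher (adjusted p = 0.197 and 0.333).

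**Figure D3:**
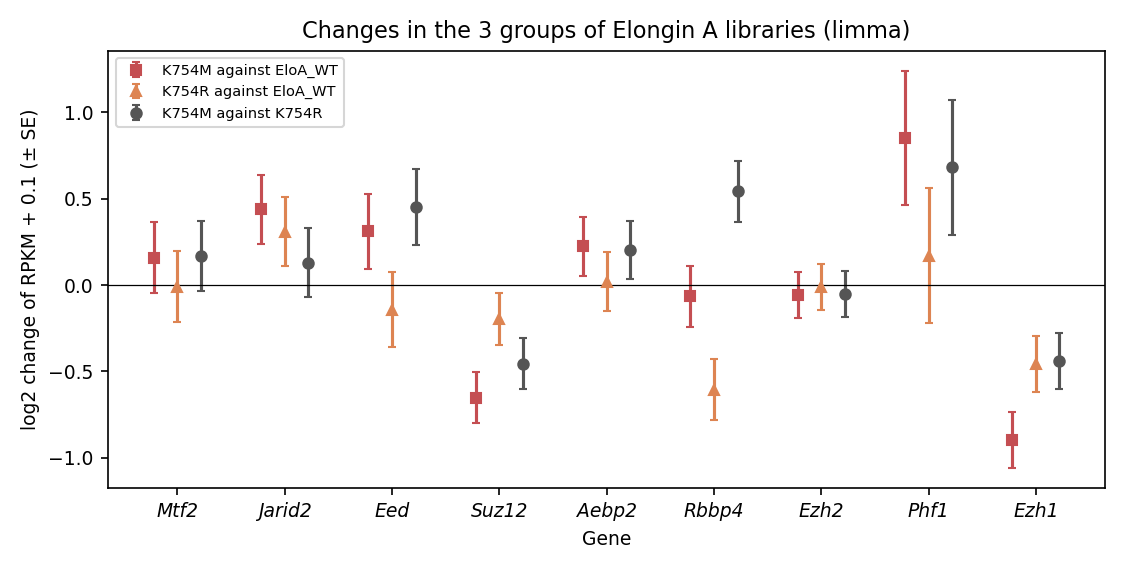
Log2 change of RPKM + 0.1 with its SE for the 9 tested PRC2 genes in 3 comparisons, each fitted on 2 libraries per group. Ezh1 and Suz12 have negative values in all 3. Ezh2 lies within 0.06 of 0, and no change passed the adjusted threshold.

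The comparison of Eed_null with CJ7_WT asks which genes are transcribed differently without Eed, and it rests on 1 column per group. Eed itself was still transcribed, at 7.97 RPKM in Eed_null against 10.0 in CJ7_WT. The ratio of recovered reads was 0.795, with an exact 95% interval of 0.773 to 0.819 that covers counting error only. Intronic reads do not check a lesion whose position is not stated. Of all 14890 genes measured there, 13.0% had a lower log2 ratio than Eed.

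The other core genes lay on both sides of 1. Ezh2 had a ratio of 0.874 (0.853 to 0.897), Rbbp4 of 0.886 (0.856 to 0.918) and Suz12 of 1.03 (1.02 to 1.05), and Ezh1 was higher at 1.29 (1.18 to 1.41). Jarid2 and Mtf2, on at least 36132 reads a column, were at 0.972 and 0.982, Aebp2 at 1.13, and Phf1 at 0.725 (0.584 to 0.898) on 140 against 231 reads. Phf19 had a ratio of 2.11 (1.33 to 3.43) on 53 against 30 reads. None of the 9 members over 0.1 RPKM was past 1.5-fold on the log2 scale of RPKM + 0.1, where 21.4% of all genes were (16% higher and 5.37% lower). That split depended on the scaling, with 2387 genes higher and 800 lower as deposited, 1601 and 1361 with equal library medians, and 1479 and 1387 with quantile normalization. The ratios of the members moved with the scaling too, which the counting intervals do not cover. With equal library medians the log2 ratio of Suz12 went from 0.047 to −0.11, and that of Aebp2 from 0.181 to 0.023. Jarid2 went from −0.04 to −0.198, Mtf2 from −0.027 to −0.184 and Eed from −0.327 to −0.484. As deposited, the median log2 ratio of the 9 members was −0.04, against 0.11 over all genes. Eed_null and CJ7_WT also carry different labelled lines, which cannot be told apart from the loss of Eed.

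**Figure D4:**
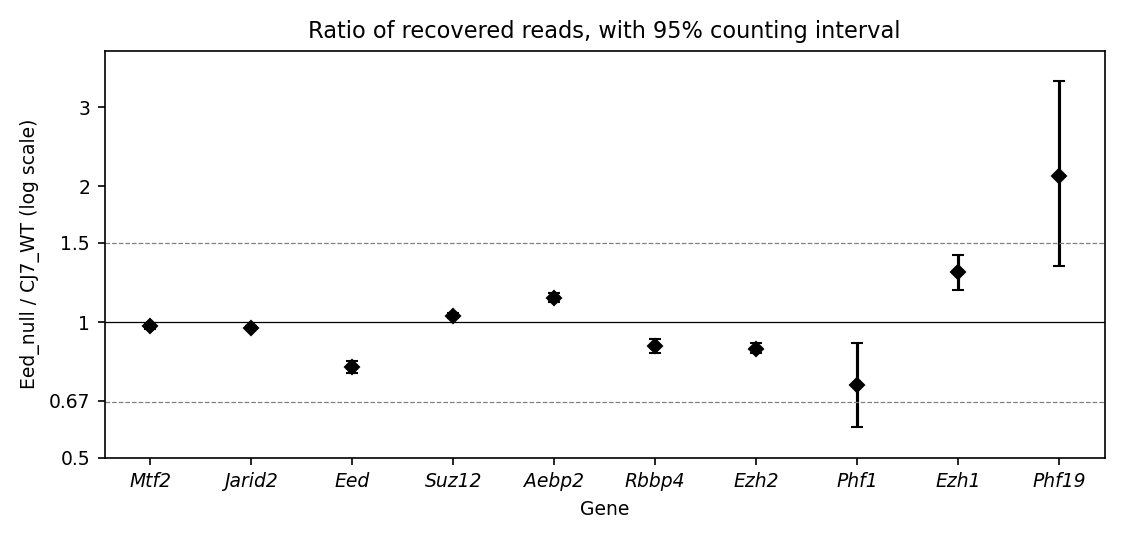
Ratio of recovered reads in Eed_null to CJ7_WT, scaled by depth, on a log axis. Bars are exact 95% counting intervals and dashed lines mark 1.5-fold. Eed lies at 0.795 and Phf19, on few reads, at 2.11.

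Across the 8 columns some members varied together, given here as a description because the columns share groups and scaling. The correlation of log2 RPKM was 0.93 between Eed and Mtf2 and 0.86 between Ezh1 and Suz12, both on chromosome 11. The lowest were −0.73 between Ezh1 and Jarid2 and −0.71 between Ezh2 and Aebp2. Among 6639 genes averaging 1 RPKM or more, those most like Eed were Slc23a1 (0.968), Ccdc132 (0.959) and Ntn1 (0.952). Among those most like Suz12 were its neighbour Utp6 (0.964) and Casc3 (0.945), both on chromosome 11. Most like Ezh2 were St5, Kcnq1 and BC052040 (0.922 to 0.910), and most like Jarid2 were Camsap1, Irs2 and Kifc5c-ps (0.960 to 0.909).

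Other genes of the pathway were read from lists written from general knowledge. Among further PRC2 cofactors 3 of 5 were in the table (Rbbp7, Lcor and Lcorl), and none was called in the 4 comparisons. Likewise 0 of 3 H3K27 demethylases, 0 of 5 H3K36 methyltransferases, 0 of 19 PRC1 subunits and 0 of 5 genes of the H2A deubiquitinase set were called in any of them. Of 24 classical PRC2 targets, mostly silent developmental regulators, 7 reached 0.1 RPKM and 0 were called. Of all tested genes, 0.218% (EloA_K754M), 3.48% (EloA_K754R), 1.58% (mean) and 0.29% (between the mutants) were called. With shares so low, 0 calls in lists this small say little about these genes.

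In Eed_null against CJ7_WT the summed level of all 24 targets was 4.49 against 2.49 RPKM, and 10 of them averaged 0.1 RPKM or more. Some of these reach that level only through the Eed_null column, so no count or median of theirs is given. The genes of these lists named here are some of those that reached 0.5 RPKM in CJ7_WT or Eed_null. The target Cdkn2a went from 0.979 to 1.25 RPKM, short of 1.5-fold. Gata6, an endoderm factor, passed only through the Eed_null column (0.185 to 0.622 RPKM), so its rise is part of how it was chosen. Of the 19 PRC1 subunits 7 were past 1.5-fold upward and 0 downward, where 16% of all genes were higher and 5.37% lower. The count of 7 was not recomputed with other scalings, on which the split of all genes depended. The median of the 19 was 0.22, on the deposited scale where the median of all genes was 0.11. Pcgf5 went from 0.511 to 1.34 RPKM and Bcor from 0.872 to 1.75. Cbx2 (0.339 to 0.744 RPKM) also reached 0.5 RPKM only in Eed_null. The H3K27 demethylase Kdm6a stood at 2.18 RPKM in Eed_null against 3.08 in CJ7_WT. Uty and Kdm6b went the other way, at 1.34 against 0.977 and 1.44 against 1.18. Of the PRC2 cofactor genes, Lcor stood at 3.65 against 5.37, Rbbp7 at 7.22 against 9.61 and Lcorl at 0.862 against 0.755. None of these demethylase and cofactor genes was past 1.5-fold on that scale.

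Stem cell markers were present in every column, with Pou5f1 between 7.45 and 36.5 RPKM and Nanog between 18.0 and 39.1. The 16 markers of embryonic fibroblasts, the feeder cells of the growth protocol, summed to 15.1 and 15.2 RPKM in EloA_WT and to between 18.8 and 22.7 in the mutants, CJ7_WT and Eed_null. Fn1 held 8.48 and 9.11 RPKM of the EloA_WT sums, and Dcn, Lum, Thy1, Postn and S100a4 stayed at or below 0.352 in every column. None of the 16 was at 0 in every column, though Lum and S100a4 were at 0 in 1 EloA_WT library each. All 13 tested had positive changes in both mutants, where 57.3% (EloA_K754M) and 64.3% (EloA_K754R) of all tested genes were negative. Tnc, an extracellular matrix gene, was called in EloA_K754R (0.82, limma adjusted p = 0.0438) and in the mean of both mutants (0.78, adjusted p = 0.0488). The extraction protocol speaks of feeder-free dishes, and the part of feeder cells in the PRC2 values was not tested.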

How the data were processed

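The authors deposited 1 table of intronic RPKM, with BWA and mm9 named in the submitters' processing notes. Counter, annotation, strand handling and depth were not stated. The values were found to be multiples of a step per gene, and units whole to within 0.01 came out for 99.97% of 20817 genes (those above 0 in at least 6 columns). The step was close to 1 annotated intron length (GENCODE M21) for 9358 genes and close to 2 for 6729, for a reason the labels do not state. Units were halved for the 7620 genes nearer to 2 than to 1 on a log scale, among them Rbbp4 at 1.64. The implied depth was 14732806 to 21725652 reads in the 6 libraries, 47972442 in CJ7_WT and 40092931 in Eed_null. Recovered intronic reads summed to more than this depth in every column, as in CJ7_WT with 49371724. The reason was not tested, so recovered reads may not be unique reads. Reads without molecular identifiers are not independent molecules, so intervals cover counting error only.

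Log2 of RPKM + 0.1 of the 6 Elongin A libraries was fitted in 1 limma model (limma 3.58.1, R 4.3.3, eBayes with a variance trend) over the 15161 genes averaging 0.1 RPKM or more. The two-sided p-values were adjusted by Benjamini-Hochberg across those genes, and the script was tested on simulated data. "Called" means an adjusted p under 0.05. Average columns were compared as ratios without a test. Exact intervals are binomial. The alternatives were other pseudocounts, filters and scalings, a replicate block, voom, centring per chromosome and leaving out each library. The members and lists were chosen with earlier results of these data known. Named are the 10 members, up to 3 called or most changed genes of each list, and for 4 members the 3 genes with the highest correlation, of which 1 is not reported here. Chromosomes, neighbours and overlaps come from GENCODE M21 on another build, so only promoter coordinates of that build are given. All 10 members matched a RefSeq promoter.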

Additional observations from a re-analysis of the deposited data

How the results depend on the processing

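Of 540 recomputed changes of the 9 tested members, 493 kept their direction and side of the threshold, 45 changed sign, 2 passed the threshold (Ezh1 with voom) and 0 lost it. Members called stayed at 0 under every alternative except voom, with 1 for EloA_K754M and 1 for the mean of both mutants. In Eed_null 1 member (Phf1) was past 1.5-fold with equal library medians, and 1 (Phf1) with centring per chromosome.

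With equal library medians Ezh2 became 0.067, 0.183 and 0.125 (EloA_K754M, EloA_K754R, mean), Rbbp4 0.062 in EloA_K754M, and Eed 0.051 and Mtf2 0.184 in EloA_K754R. With quantile normalization these were 0.043, 0.160 and 0.101 for Ezh2, 0.042 for Rbbp4, 0.108 for Eed, 0.415 for Mtf2 and 0.051 for Suz12 in EloA_K754R, and −0.136 for Jarid2 and −0.130 for Mtf2 between the mutants. Voom gave 0.005 for Mtf2 in EloA_K754R. Centring per chromosome gave 0.038, 0.172 and 0.105 for Ezh2, 0.136 for Eed, 0.166 for Ezh1, 0.427 for Suz12 and 0.197 for Mtf2 in EloA_K754R, and 0.140 for Suz12 in the mean.

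Leaving out 1 library, with the lone library of its group assumed to vary like the others, gave, in EloA_K754M, ranges of −0.174 to 0.054 for Ezh2, −0.063 to 0.381 for Mtf2 and −0.262 to 0.133 for Rbbp4. In EloA_K754R they were −0.385 to 0.102 for Eed, −0.091 to 0.073 for Ezh2, −0.231 to 0.213 for Mtf2, −0.311 to 0.65 for Phf1 and −0.181 to 0.221 for Aebp2. In the mean they were −0.160 to 0.328 for Eed, −0.092 to 0.022 for Ezh2, −0.147 to 0.297 for Mtf2 and −0.079 to 0.323 for Aebp2, and between the mutants −0.164 to 0.063 for Ezh2. Ranges that kept their sign but moved by over 1.5 times were, in EloA_K754M, 0.022 to 0.425 for Aebp2, 0.066 to 0.554 for Eed, 0.206 to 0.671 for Jarid2 and 0.456 to 1.244 for Phf1. In EloA_K754R they were 0.076 to 0.541 for Jarid2 and −0.343 to −0.051 for Suz12. In the mean they were 0.141 to 0.606 for Jarid2 and 0.116 to 0.904 for Phf1. Rbbp4 and Suz12 there had −0.533 to −0.137 and −0.57 to −0.278. Between the mutants they were 0.3 to 0.603 for Eed, 0.005 to 0.256 for Jarid2 and 0.075 to 0.261 for Mtf2. Phf1 and Aebp2 there had 0.2 to 1.16 and 0.112 to 0.294.

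Calls over all genes depended on the settings, and the cause was not tested. The 33 calls for EloA_K754M became 16 with no filter, 16 with equal medians, 17 with quantile normalization, 333 with voom, 17 centred per chromosome and 2 to 52 without 1 library. The 527 for EloA_K754R (104 higher, 423 lower) became 160, 324 (164 higher, 160 lower), 333 (169 and 164), 1307, 105 (46 and 59) and 1 to 9, whichever of the 6 libraries was left out. The 239 for the mean (21 higher) became 50, 40 (8 higher), 51 (8 higher), 893, 42 and 3 to 35. The 44 between the mutants became 26 with no filter, 12 from a mean of 0.5 RPKM, 68 with equal medians, 90 with quantile normalization, 472 with voom and 5 to 62 without 1 library. Genes past 1.5-fold in Eed_null went from 3187 to 1238 with a pseudocount of 0.5 and 1655 from a mean of 0.5 RPKM.

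With a replicate block the calls were 227, 1777, 1046 and 355 in these 4 comparisons, and 0 members were called. The lowest adjusted p of a member under the block was 0.0519 (Rbbp4 in EloA_K754R and Ezh1 in the mean). Deviations of libraries with the same number correlated at 0.15 to 0.20 across genes, but nothing in the labels ties the numbers together. Phf1, Phf19 and Ezh1 rest on 10 to 480 reads per library, which limits their precision.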
